A study of Mus musculus with 12 samples.

Results

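Old vehicle cultures of mouse bone marrow mesenchymal stem cells (MSCs) were compared by how much macrophage RNA they held. Of the 6 old vehicle libraries among the 12 libraries of the series, 4 (replicates 3, 5, 8 and 9) had more than 2000 CPM (counts scaled to a common library size) of Lyz2 and are called macrophage-rich, and 2 (replicates 1 and 2) had less and are called macrophage-poor. The split was thus chosen by a value measured in the same libraries, so every difference between rich and poor libraries below is a description without a test. All 6 came from bone marrow MSCs of old mice, cultured in DMEM with 10% FBS, given vehicle and lysed in Trizol. The other 6 libraries were old melatonin (replicates 1, 3 and 5, given 1 µM for 24 hours) and young vehicle (replicates 2, 4 and 5). The labels give neither the age in months, the passage, any sorting step, nor whether libraries came from separate animals.

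Bone marrow MSC cultures are started from cells that stick to plastic. Macrophages stick to plastic too and can persist among the stromal cells of mouse cultures. Macrophages are phagocytes of the haematopoietic lineage that depend on signals through the receptor CSF1R, and stromal cells make its ligand CSF1. They engulf particles through Fc, complement and scavenger receptors, digest them in lysosomes and kill microbes with an NADPH oxidase.

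The libraries were not all independent. Across the 2 deposited tables, each library had 1 closest partner, and the old vehicle libraries paired as replicates 3 and 8, 5 and 9 (all rich) and 1 and 2 (both poor). Partners correlated at r = 0.980 to 0.997 over 13013 genes on the log2(CPM + 0.5) scale, whereas rich libraries of different pairs had r = 0.929 to 0.937 and rich against poor libraries r = 0.843 to 0.878. Genes are not independent replicates, so these correlations describe likeness only. Partners still differed by more than counting noise, with a median chi-square per gene 2.06 to 6.64 times the value expected from counting, so they are given as separate values. The 4 rich libraries therefore amount to 2 pairs and the 2 poor ones to 1 pair, and a standard deviation (SD) over libraries understates the spread between cultures. Whether partners shared a culture is not stated in the labels. The other 6 libraries paired as well, young vehicle 2 with old melatonin 1, young vehicle 4 with old melatonin 3, and young vehicle 5 with old melatonin 5. Library totals were 20595378 to 21309663 estimated counts.

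Lyz2, which encodes the lysozyme of macrophages and other myeloid cells, defined the split. Its level was 8958, 8040, 5680 and 8083 CPM in rich replicates 3, 8, 5 and 9, against 561 and 510 CPM in poor replicates 1 and 2. The libraries nearest the 2000 CPM threshold were replicate 5 inside the rich group and replicate 1 outside it, so no library lay close to it. The mean was 7690 ± 1405 CPM in rich libraries (SD, n = 4) and 536 ± 35.9 CPM in poor libraries (SD, n = 2). The other 6 libraries of the series had 24.6 to 485 CPM, all below the poor old vehicle libraries.

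The 3 other macrophage markers stood high and low in the same libraries as Lyz2. Their gene identifiers in the tables are 12514 for Cd68, 12978 for Csf1r and 12259 for C1qa, beside 17105 for Lyz2. Cd68, a lysosomal membrane glycoprotein of macrophages, had 1143, 1204, 498 and 634 CPM in rich replicates 3, 8, 5 and 9, against 51.4 and 44.6 CPM in poor replicates 1 and 2. Its rich libraries lay far above the poor ones, and the pair of replicates 3 and 8 lay above the pair of 5 and 9. Csf1r, the receptor for CSF1, had 631, 537, 657 and 803 CPM in the same rich order, against 46.0 and 48.3 CPM in poor replicates 1 and 2. C1qa, a chain of the complement protein C1q, had 1248, 1141, 1184 and 1314 CPM in rich libraries, against 67.5 and 59.1 CPM in poor replicates 1 and 2. C1qa was the steadiest of the 4 across rich libraries, at 1222 ± 75.7 CPM (SD, n = 4), against 63.3 ± 5.95 CPM in poor libraries (SD, n = 2). The ratio of mean CPM, rich over poor, was 14.4 for Lyz2, 18.1 for Cd68, 13.9 for Csf1r and 19.3 for C1qa. The markers thus stood at a low but measured level in poor libraries. In bulk RNA, fewer macrophages and less of these RNAs per macrophage cannot be told apart.

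**Figure D1:**
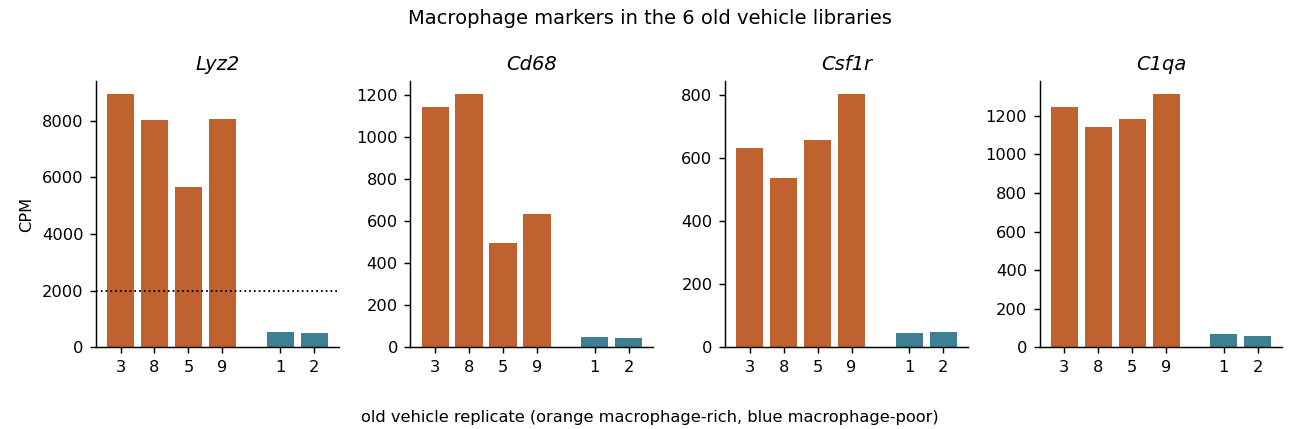
CPM of Lyz2, Cd68, Csf1r and C1qa (vertical axes, linear from 0, a scale per gene) in each old vehicle library, as bars, with macrophage-rich replicates 3, 8, 5 and 9 in orange and macrophage-poor replicates 1 and 2 in blue. The dotted line is the 2000 CPM threshold on Lyz2, and Cd68 is the marker that differs most between the rich pairs.

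The start regions of 5 genes that were higher in rich libraries are shown because they carry short motifs of myeloid and interferon-responsive promoters. The windows run from 250 bases before to 50 bases after the gene start and are RefSeq sequences of the build GRCm38.p6, matched by symbol. Capitals mark AGGAAGT on either strand, a motif of the type bound by the myeloid factor PU.1, or TTTCNNTTTC on either strand, a motif of the type bound by interferon regulatory factors and STAT complexes.
Lyz2 (chr10:117282223-117282522, minus strand): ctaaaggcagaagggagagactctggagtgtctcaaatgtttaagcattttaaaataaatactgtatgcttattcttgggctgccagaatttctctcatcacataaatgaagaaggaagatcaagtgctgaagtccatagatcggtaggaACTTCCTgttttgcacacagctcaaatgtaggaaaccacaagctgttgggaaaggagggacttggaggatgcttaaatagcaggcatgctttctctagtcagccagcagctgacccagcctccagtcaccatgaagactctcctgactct
C1qb (chr4:136886151-136886450, minus strand): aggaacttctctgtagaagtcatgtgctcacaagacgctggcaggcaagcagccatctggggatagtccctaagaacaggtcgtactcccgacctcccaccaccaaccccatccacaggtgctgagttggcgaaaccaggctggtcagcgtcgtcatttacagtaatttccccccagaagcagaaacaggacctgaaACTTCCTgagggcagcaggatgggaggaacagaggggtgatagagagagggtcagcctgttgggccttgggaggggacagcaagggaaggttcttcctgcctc
C1qc (chr4:136892865-136893164, minus strand): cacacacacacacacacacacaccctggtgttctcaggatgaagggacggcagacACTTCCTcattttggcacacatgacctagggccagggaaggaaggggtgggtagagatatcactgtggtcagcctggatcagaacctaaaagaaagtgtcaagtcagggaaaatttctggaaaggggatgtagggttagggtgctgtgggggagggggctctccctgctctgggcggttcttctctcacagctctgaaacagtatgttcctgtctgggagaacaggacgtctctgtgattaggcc
Ctss (chr3:95526536-95526835, plus strand): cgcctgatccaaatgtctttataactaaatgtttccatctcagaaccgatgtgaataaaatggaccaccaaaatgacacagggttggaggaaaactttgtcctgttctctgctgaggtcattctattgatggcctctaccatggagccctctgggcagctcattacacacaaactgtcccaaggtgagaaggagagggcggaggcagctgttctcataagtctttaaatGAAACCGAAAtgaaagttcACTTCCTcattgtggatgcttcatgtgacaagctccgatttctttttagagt
Cybb (chrX:9469275-9469574, minus strand): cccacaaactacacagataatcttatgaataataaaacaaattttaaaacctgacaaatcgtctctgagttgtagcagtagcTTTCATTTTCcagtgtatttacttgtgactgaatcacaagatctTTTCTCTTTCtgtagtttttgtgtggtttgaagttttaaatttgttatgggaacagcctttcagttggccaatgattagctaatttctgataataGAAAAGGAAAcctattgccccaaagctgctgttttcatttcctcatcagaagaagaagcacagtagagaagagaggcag
The capitals in Lyz2, C1qb and C1qc are the PU.1-type motif on the minus strand of the window. Those in Ctss, a lysosomal cysteine protease, are both motifs without overlap, and those in Cybb, the catalytic subunit of the phagocyte NADPH oxidase, are 3 interferon-type motifs. The PU.1-type motif occurred in 9.57% and the interferon-type motif in 3.49% of all 27025 windows. These 5 windows were picked after their motifs were seen. A comparison of motif shares between gene classes was void, since only 751 of the 987 higher genes (76.1%) and 222 of the 332 lower genes (66.9%) described next had a window. A match is a description of the letters and shows no binding.

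Across all genes, the comparison asked which transcripts followed the macrophage markers and which did not. Of 18908 genes, 12954 had a mean of at least 1 CPM over the 6 libraries. A gene was counted as higher where its lowest CPM + 0.5 in rich libraries was at least 2 times its highest in poor ones, which 987 genes met (7.62% of those past the filter). The mirror rule for lower genes was met by 332 genes (2.56%). Level genes, with a difference of mean log2(CPM + 0.5) below 0.25 in size and overlapping ranges, numbered 3822 (29.5%). The remaining 7813 genes lay between these classes. Counted without the 2-fold gap, the groups did not overlap for 3298 genes with rich above poor (25.5%) and 4270 genes with rich below poor (33.0%), so a lack of overlap alone was common. The median difference over all genes past the filter was -0.09 on the log2(CPM + 0.5) scale.

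Higher genes differed by more than lower ones. The median difference of the 987 higher genes was 2.80 (quartiles 1.93 and 3.83), and 215 of them passed 4 on the log2(CPM + 0.5) scale. The median of the 332 lower genes was -1.87, with 10 of them past 4 in size. Within each table alone, the higher genes had medians of 2.76 (age table) and 2.83 (melatonin table), and the lower genes -1.77 and -1.95, with partner libraries on either side of this comparison. Libraries of both tables took part in the choice of these genes, so the same direction in each table was fixed in advance. The higher genes took 12.8% to 14.1% of all counts in rich libraries, against 2.20% and 2.25% in poor libraries. Counts outside the higher genes were thus 86.5% of the total in rich libraries and 97.8% in poor ones, a difference of -0.18 on the log2 scale that every other gene carries in its CPM.

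**Figure D2:**
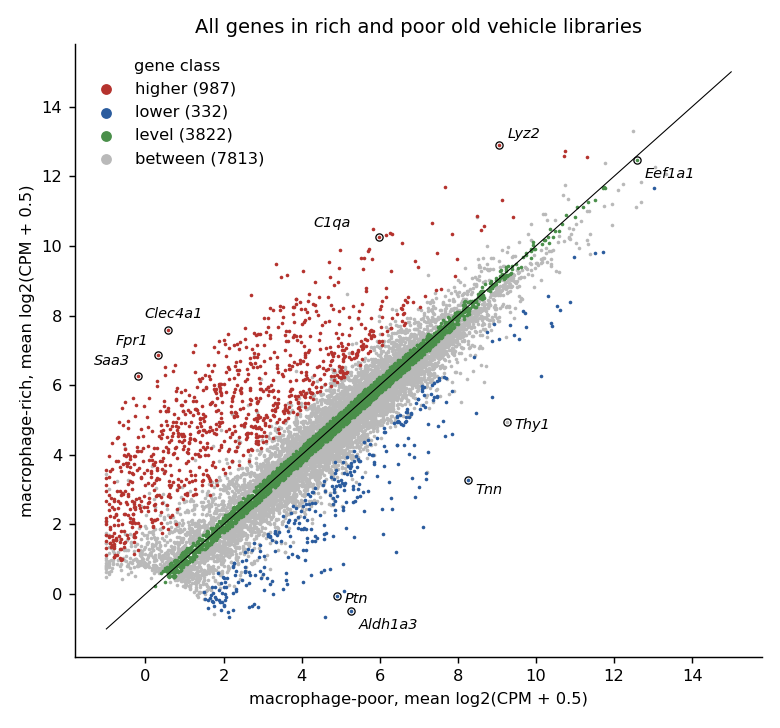
Mean log2(CPM + 0.5) in the 4 macrophage-rich libraries (vertical axis) against the 2 macrophage-poor libraries (horizontal axis), a point per gene, for the 12954 genes past the filter. The line marks equal levels. The 987 higher genes spread up to 7.02 above it, whereas the 332 lower genes are fewer and reach -5.76.

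The 15 higher genes with the largest difference among those with a mean of at least 10 CPM were mostly receptors of myeloid cells. Clec4a1, a C-type lectin receptor, had 121, 137, 394 and 208 CPM in rich replicates 3, 8, 5 and 9, against 0.958 and 1.01 CPM in poor replicates 1 and 2, a difference of 7.02 on the log2(CPM + 0.5) scale. Fpr1 and Fpr2, receptors for formylated bacterial peptides, differed by 6.53 and 6.04. Ccl6, a chemokine of myeloid cells, had 1012, 1537, 501 and 328 CPM in rich libraries in that order, against 9.43 and 9.93 CPM in poor libraries. Cd36, a scavenger receptor for oxidised lipids, had 558, 532, 332 and 220 CPM in rich libraries, against 5.46 and 6.66 CPM in poor ones. For each of these 5 genes, every rich library lay far above every poor one. The other 10 were Saa3 (an acute-phase serum amyloid), Evi2b, Slamf7, Pilrb2, Pilra, Esm1, Bst1, Clec4a2, H2-Q4 and Fcgr1, with differences of 5.71 to 6.45. Of all 987 higher genes, 148 belonged to a gene list described here and 839 to none.

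Macrophage identity genes were higher almost throughout. Of 20 list members, 18 were higher, and the list's median difference was 4.23 on the log2(CPM + 0.5) scale, against -0.09 over all genes. Itgam, the integrin chain CD11b, had 577, 652, 683 and 434 CPM in rich replicates 3, 8, 5 and 9, against 12.2 and 11.3 CPM in poor replicates 1 and 2. Adgre1, the F4/80 antigen of mouse macrophages, had 563, 481, 1353 and 835 CPM in rich libraries, against 25.8 and 24.9 CPM in poor ones. Siglec1, a sialic acid receptor of tissue macrophages, had 1214, 994, 1028 and 664 CPM in rich libraries, against 33.9 and 28.8 CPM in poor ones. Both genes were high in all 4 rich libraries, with replicate 5 the highest for Adgre1 and replicate 3 for Siglec1. Spi1, which encodes PU.1, had 179, 176, 283 and 259 CPM in rich libraries, against 12.5 and 9.40 CPM in poor ones. Maf, a transcription factor that stromal cells also use, had the smallest difference of the 18, at 1.69, and poor libraries held 106 and 99.5 CPM of it. The 2 exceptions were Timd4, a phosphatidylserine receptor of resident macrophages, with 6.41 and 8.34 CPM in rich replicates 3 and 8 and 0 in the 4 others, and Cx3cr1, the fractalkine receptor, with 19.8 CPM in replicate 9 and at most 1.71 CPM elsewhere.

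Fc receptors and the signalling proteins below them followed in the same way. Of 20 members, 19 were higher, and the median difference was 4.02. Fcgr3, an activating Fc receptor for IgG, had 564, 488, 418 and 527 CPM in rich replicates 3, 8, 5 and 9, against 29.1 and 31.1 CPM in poor replicates 1 and 2. Ptpn6, the phosphatase SHP-1, had 173, 176, 219 and 155 CPM in rich libraries, against 6.51 and 6.23 CPM in poor ones. Syk, the kinase that Fc receptors recruit, had a smaller difference of 1.73, with 148 to 176 CPM in rich libraries and 49.3 and 47.7 CPM in poor ones. Arhgdib, a regulator of small GTPases, was the member outside the class, at 271 to 350 CPM in rich libraries and 159 and 172 CPM in poor ones.

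The phagocyte NADPH oxidase was higher as a whole complex. All 6 members were in the higher class, and the median difference was 4.51. Cybb, whose start region is shown above, had 741, 751, 602 and 458 CPM in rich replicates 3, 8, 5 and 9, against 17.4 and 14.3 CPM in poor replicates 1 and 2. The cytosolic subunits Ncf1 and Ncf4 differed by 4.25 and 4.76, and the GTPase Rac2 by 5.04. Cyba, the partner chain that many cell types express, differed by 1.71, with 271 to 365 CPM in rich libraries and 96.7 and 95.8 CPM in poor ones.

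Complement genes parted by role. Of 16 members, 9 were higher and none lower, with a median difference of 2.37. The C1q chains C1qb and C1qc had 1285, 1120, 1238 and 1437 CPM and 1334, 1093, 1318 and 1434 CPM in rich replicates 3, 8, 5 and 9, against 73.9 and 67.5 CPM and 80.7 and 77.4 CPM in poor replicates 1 and 2. The anaphylatoxin receptors C3ar1 and C5ar1 were higher by 4.04 and 4.44. The proteases that bind C1q went the other way without reaching the lower class. C1s1 had 34.7, 38.1, 157 and 124 CPM in rich libraries, against 312 and 295 CPM in poor ones, and C1ra had 46.7, 55.7, 167 and 105 CPM, against 261 and 233 CPM. Within the C1 complex, the C1q chains and the C1r and C1s proteases therefore stood on opposite sides in these libraries. Serping1, the C1 inhibitor, had 178, 176, 1542 and 777 CPM in rich libraries, against 74.1 and 69.1 CPM in poor ones.

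Genes of lipid handling and of lysosomes showed a graded picture. Of 16 genes of lipid-laden and phagocytic macrophages, 8 were higher, with a median of 1.68. Apoe, a lipid carrier, had 3834, 2718, 2922 and 3881 CPM in rich replicates 3, 8, 5 and 9, against 214 and 195 CPM in poor replicates 1 and 2. Msr1, a scavenger receptor, had 444 to 542 CPM in rich libraries, against 19.1 and 20.9 CPM in poor ones. Spp1, the matrix protein osteopontin, which stromal cells also make, had 4284, 5495, 2942 and 2008 CPM in rich libraries, against 1717 and 1723 CPM in poor ones. The tetraspanins Cd9 and Cd63, also in this list, had differences of -0.54 and -0.28. Of 20 lysosomal genes, 5 were higher (Ctsb, Ctsd, Lipa, Atp6v0d2 and Atp6v1b2), and the list's median difference was 0.95. Ctsd, an aspartic protease, had 8129, 6785, 5590 and 6720 CPM in rich libraries, against 1751 and 1696 CPM in poor ones. Of the 15 other lysosomal genes, 13 had rich libraries above poor ones within the 2-fold gap. Over all genes past the filter, 25.5% had rich above poor without overlap, higher genes included. The 13 differed by up to 1.17, and Lamp2 was level. Lysosomal RNA was thus already abundant in poor libraries, where the list summed to 10312 and 10113 CPM, against 21422 to 28320 CPM in rich libraries.

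Receptors for microbial products were in the higher class in 18 of 20 cases, with a median of 3.38. The endosomal receptors Tlr7, Tlr8 and Tlr13 differed by 3.74, 4.25 and 4.05, and Tlr3, also endosomal, by 1.42. Tlr4, the lipopolysaccharide receptor, differed by 1.27, at 93.2, 95, 70.4 and 70.9 CPM in rich replicates 3, 8, 5 and 9, against 33.2 and 33.9 CPM in poor replicates 1 and 2. Its co-receptor chain Ly96 and the adaptor Myd88 were the members outside the class, at 0.72 and 0.75. The lectin receptor Clec4e, which senses fungal and mycobacterial glycolipids, had 81.2, 123, 15.8 and 18.8 CPM in rich libraries, against 0.671 and 1.15 CPM in poor ones. Its rich libraries fell apart by pair, with replicates 3 and 8 above replicates 5 and 9.

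Activation genes were higher in most cases, with 2 classical cytokines near 0. Of 14 genes of macrophage activation, 11 passed the filter and 8 of these were higher. All of the 8 but Il1rn were below 1 CPM in both poor libraries. They passed the filter only through rich libraries, so their class was largely fixed by it. Tnf, a cytokine of activated macrophages, had 38.3, 54.0, 61.6 and 46.8 CPM in rich replicates 3, 8, 5 and 9, against 0.527 and 0.623 CPM in poor replicates 1 and 2. Il1rn, the antagonist of the interleukin-1 receptor, had 209, 234, 821 and 394 CPM in rich libraries, against 14.2 and 13.9 CPM in poor ones. Il1b and Il12b were at or below 0.335 CPM in all 6 libraries. For the lists whose members include a gene at 0 in both poor libraries, the median was also computed with that gene against a floor of 3 counts (0.144 CPM). It became 3.26 in place of 3.01 for macrophage activation, 3.32 in place of 2.76 for antigen presentation and 4.27 in place of 4.23 for macrophage identity.

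Of 17 chemokines past the filter, 13 were higher, with a median of 3.14. Ccl3, which attracts leukocytes, had 96.8, 126, 144 and 137 CPM in rich replicates 3, 8, 5 and 9, against 2.95 and 3.35 CPM in poor replicates 1 and 2. Ccl2, the monocyte attractant that stromal cells also secrete, had 221, 327, 307 and 166 CPM in rich libraries, against 35.8 and 37.4 CPM in poor ones. Pf4, listed here and among megakaryocyte genes, had 126, 158, 35.2 and 120 CPM in rich libraries, against 3.02 and 2.73 CPM in poor ones. Of the 3 megakaryocyte genes past the filter, it was the 1 higher. Itga2b was lower, at 1.63 to 1.92 CPM in rich libraries and 5.22 and 5.51 CPM in poor ones. Gp1bb had 3.96, 4.08, 6.68 and 6.35 CPM in rich libraries, against 9.33 and 7.30 CPM in poor ones. Gp9, below the filter, was at or below 0.144 CPM in all 6 libraries.

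Interferon-response genes were higher in 16 of 17 cases, with a median of 3.16. Irf7, a transcription factor of this response, had 103, 108, 361 and 180 CPM in rich replicates 3, 8, 5 and 9, against 8.52 and 8.73 CPM in poor replicates 1 and 2. Oasl2 had 193, 176, 391 and 193 CPM in rich libraries, against 13.9 and 13.2 CPM in poor ones. Replicate 5 stood above the 3 other rich libraries in both. Its mean over the list was 7.13 on the log2(CPM + 0.5) scale, against 6.19 in the next highest rich library. The order of the rich libraries for these genes differed from their order for Lyz2, where replicate 5 was the lowest of the 4. Outside the comparison, some of these genes reached rich levels in young vehicle 2 and old melatonin 1, where Lyz2 had 419 and 485 CPM. Ifit3 had 261 and 207 CPM in them, against 79.0 to 285 CPM in rich libraries. Irf7, at 52.3 and 40.7 CPM, and Oasl2, at 81.2 and 60.9 CPM, stayed below every rich library there.

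Antigen presentation genes fell into class I and class II. Of 13 members past the filter, 7 were higher. The class I genes H2-K1, H2-D1 and B2m differed by 4.17, 3.32 and 2.20. H2-K1 had 753, 788, 1533 and 834 CPM in rich replicates 3, 8, 5 and 9, against 51.5 and 51.5 CPM in poor replicates 1 and 2. Several class II genes differed between the rich pairs. H2-DMa, which helps to load class II molecules, was even across them, with 19.2, 17, 17.4 and 19 CPM in rich replicates 3, 8, 5 and 9, against 8.81 and 8.64 CPM in poor replicates 1 and 2. Cd74, the class II invariant chain, had 70.7 and 89.3 CPM in rich replicates 3 and 8 and 2.63 and 2.87 CPM in rich replicates 5 and 9, against 0.287 and 0.192 CPM in poor libraries. Class I and class II genes share stretches of sequence with their paralogs, so reads could be split among them.

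Osteoclast genes were mixed. Osteoclasts are bone-resorbing cells that form from macrophage precursors. Of 16 genes, 6 were below the filter, among them Calcr, Ocstamp and Dcstamp (receptor and fusion proteins of mature osteoclasts), each at or below 0.574 CPM in every library. Of the 10 others, 5 were higher. Tnfrsf11a, the receptor RANK that macrophage precursors carry, had 39.9, 30.2, 52.1 and 51.7 CPM in rich replicates 3, 8, 5 and 9, against 2.82 and 3.04 CPM in poor replicates 1 and 2. Ctsk, the osteoclast protease, had 17.5, 16.7, 33.0 and 31.8 CPM in rich libraries, against 47.5 and 46.9 CPM in poor ones. Nfatc1, the factor that drives osteoclast formation, was level at -0.09.

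Many markers of other blood cells were near 0, with exceptions. S100a9, an abundant neutrophil gene, had no count in any of the 6 libraries, and Ngp, Ltf, Mpo, Elane, Prtn3 and Ly6g were at or below 0.289 CPM. Of the 4 neutrophil genes past the filter, 2 were higher. Mmp8, a collagenase of neutrophils, had 10.5, 16.3, 11.8 and 10.2 CPM in rich replicates 3, 8, 5 and 9, against 0.192 and 0.0959 CPM in poor replicates 1 and 2, and S100a8 had 1.34 to 4.31 CPM in rich libraries, against 0.0958 and 0.0479 CPM in poor ones. Both passed the filter only through the rich libraries, so their place in the higher class was largely fixed by the filter. The neutrophil list summed to 13.9 to 21.2 CPM in rich libraries and 2.89 and 3.11 CPM in poor ones. Among monocyte genes, F13a1 had 546, 183, 401 and 782 CPM in rich replicates 3, 8, 5 and 9, against 53.7 and 45.2 CPM in poor replicates 1 and 2, and Ly6c2 was at or below 1.55 CPM. The T cell receptor genes Cd3e, Cd3d and Cd3g were at or below 0.287 CPM and the B cell gene Ms4a1 at or below 0.0478 CPM in every library. Of 8 T and NK cell genes, Cd4 alone passed the filter, and of 8 B cell genes Ebf1, a factor that marrow stroma also uses. Of 8 dendritic cell genes, 1 passed the filter (Zbtb46), and of 8 erythroid genes also 1 (Epor). The erythroid list summed to 1.05 to 5.50 CPM in rich libraries and 0.970 and 0.527 CPM in poor ones. Among mast cell genes, Cpa3 and Ms4a2 were at or below 0.144 CPM, and Kit had 0.909, 1.01, 8.09 and 5.88 CPM in rich libraries, against 0.287 and 0.240 CPM in poor ones. Among endothelial genes, Cldn5 and Tie1 were at or below 0.192 CPM, whereas Vwf had 57.9, 68.1, 1.87 and 2.34 CPM in rich libraries, against 0.862 and 0.432 CPM in poor ones. Of the 4 past the filter, 2 had a positive and 2 a negative difference. Kdr had 4.74, 5.79, 0.671 and 17.1 CPM in rich libraries, against 22.3 and 24.3 CPM in poor ones. Tek was in the lower class, at 0.0964 to 0.671 CPM in rich libraries and 3.45 and 3.36 CPM in poor ones. The part of other blood cells in the differences was not tested.

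Genes of energy metabolism, protein synthesis and protein folding did not follow the macrophage markers by the 2-fold rule. The 12 level genes of highest mean CPM included Eef1a1, Acta2, Actg1, Gapdh, Hspa8, Flna, Pkm, Itgb1, Hsp90ab1 and Gas6. Eef1a1, a translation elongation factor, had 5984, 6155, 5141 and 5297 CPM in rich replicates 3, 8, 5 and 9, against 6209 and 6076 CPM in poor replicates 1 and 2. Over all genes past the filter, 7.62% were higher and 2.56% lower. None of 20 ribosomal proteins, 18 respiratory chain subunits, 14 glycolytic genes or 16 chaperones and proteasome subunits was higher or lower. Without the 2-fold gap, rich lay below poor without overlap for 13, 11, 2 and 8 of them in that order, against 33.0% of all genes past the filter. Rich lay above poor without overlap for 0, 3, 4 and 2, against 25.5% of all genes past the filter. Level members numbered 7, 4, 8 and 4 in these lists, against 29.5% of all genes past the filter. The list medians were -0.22, -0.24, 0.08 and -0.20. Scaling to the counts outside the higher genes moved the median of all genes from -0.09 to 0.08, and with it the 4 list medians to -0.05, -0.06, 0.26 and -0.03. On TPM, which also corrects for gene length, the median of all genes was -0.19 and the glycolysis median -0.02. Directions this close to 0 therefore turn with the scaling.

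Contractile genes, which mark myofibroblast-like stromal cells in culture, were level in 7 of 14 cases, with a median of 0.04 (-0.07 on TPM). Acta2, smooth muscle actin, had 4369, 4558, 2790 and 2001 CPM in rich replicates 3, 8, 5 and 9, against 3250 and 3692 CPM in poor replicates 1 and 2. The rich pairs lay on either side of the poor pair, so a level mean here hides a split. The 3 higher members were Mylk (myosin light chain kinase), Des (desmin) and Actg2 (enteric smooth muscle actin). Actg2 had 337, 328, 183 and 98.8 CPM in rich libraries, against 20.3 and 24.7 CPM in poor ones. Outside the comparison, where Lyz2 was low, Actg2 had 77.9 to 269 CPM in young vehicle and 65.5 to 274 CPM in old melatonin libraries. All of these lay above the poor pair, so Actg2 did not go with Lyz2 across the series. Mylk and Des had at most 28.3 and 2.89 CPM in those libraries. The level class as a whole was narrower than this, with 2674 of the 3822 level genes within 1.5 times over all 6 libraries, although 65 of them spanned more than 4 times.

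Stromal and matrix genes stood lower in rich libraries, by less than the macrophage genes stood higher. Of 16 stromal identity genes, 4 were lower (Nt5e, Twist1, Twist2 and Col6a1), 1 was higher and 2 were level, with a median of -1.27. Twist1, a mesenchymal transcription factor, had 27.7, 29.0, 27.3 and 36.3 CPM in rich replicates 3, 8, 5 and 9, against 82.6 and 82.4 CPM in poor replicates 1 and 2. Pdgfrb, a receptor of pericytes and stromal cells, had 164, 146, 410 and 352 CPM in rich libraries, against 705 and 682 CPM in poor ones. The higher member was Eng, the TGF-beta co-receptor endoglin, which macrophages can also express, at 77.2, 68.3, 133 and 127 CPM in rich libraries and 18.4 and 15.8 CPM in poor ones. Outside the comparison, Eng did not go with Lyz2 throughout. It had 124 CPM in young vehicle 2 and 112 CPM in old melatonin 1, where Lyz2 had 419 and 485 CPM. In the rest of the series Eng had at most 12.3 CPM. The source of Eng RNA was not tested. The level members were Itgb1 and Cd44, adhesion receptors found on both cell types.

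Of 18 collagen and matrix genes past the filter, 6 were lower and none higher, with a median of -1.06. The lower ones were Col5a1, Col6a2, Col6a3, Postn, Fbn1 and Lox. Postn, the matricellular protein periostin, had 373, 339, 161 and 93.7 CPM in rich replicates 3, 8, 5 and 9, against 1353 and 1351 CPM in poor replicates 1 and 2. Lox, the enzyme that crosslinks collagen, had 3132, 2875, 2962 and 4006 CPM in rich libraries, against 8240 and 8288 CPM in poor ones. Col1a1, the main chain of collagen I, had 3872, 3884, 1161 and 2013 CPM in rich libraries, against 6657 and 6564 CPM in poor ones, and was outside the lower class only through replicates 3 and 8. Col3a1 was level at -0.04. The list summed to 27441 to 30694 CPM in rich libraries and 62686 and 61188 CPM in poor ones, so matrix RNA remained abundant in the rich cultures.

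The 15 lower genes with the largest difference included matrix proteins, secreted factors and enzymes. Ibsp, the bone sialoprotein of osteoblasts, had 1.82, 1.59, 2.83 and 6.98 CPM in rich replicates 3, 8, 5 and 9, against 68.8 and 66.2 CPM in poor replicates 1 and 2. Aldh1a3, an enzyme of retinoic acid synthesis, had at most 0.431 CPM in rich libraries, against 37.8 and 38.5 CPM in poor ones. Tnn, the matrix protein tenascin-N, had 16.5, 13.3, 7.04 and 4.45 CPM in rich libraries, against 292 and 317 CPM in poor ones. Every poor library lay far above every rich one in these 3 genes. The remaining 12 were Ace, Angptl7, Nell2, Ptn, Sparcl1, Brinp3, Itm2a, Col15a1, Prl2c2, Dlk1, Dnm1 and Serpinb1a, with differences of -5.23 to -3.71.

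Other stromal lineages gave smaller or mixed differences. Of 11 osteoblast genes past the filter, Ibsp alone was lower and Msx2 was level, with a median of -0.86. Runx2, the factor that commits cells to bone formation, had 28.6, 31.0, 45.5 and 31.2 CPM in rich replicates 3, 8, 5 and 9, against 60.1 and 56.4 CPM in poor replicates 1 and 2. Alpl, the alkaline phosphatase of mineralising cells, had 11.6, 9.79, 164 and 90.0 CPM in rich libraries, against 91.4 and 85.8 CPM in poor ones, so replicates 3 and 8 were low and replicates 5 and 9 were not. Of 13 adipocyte genes, 1 was higher (Cebpa, a factor that myeloid cells also use), 1 lower (Scd1) and 4 level. Of 15 Hox and limb genes, Hoxd9 alone was lower, and 9 more had rich below poor without overlap, with a median of -0.93. Cholesterol synthesis genes stood together, with 14 of 16 below the poor libraries without overlap, 1 more in the lower class (Lss) and a median of -1.0. Over all genes past the filter, 33.0% had rich below poor without overlap, lower genes included, and 2.56% were in the lower class. Sqle, the squalene epoxidase of that pathway, had 37.7, 39.0, 43.3 and 41.9 CPM in rich libraries, against 84.9 and 89.8 CPM in poor ones.

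**Figure D3:**
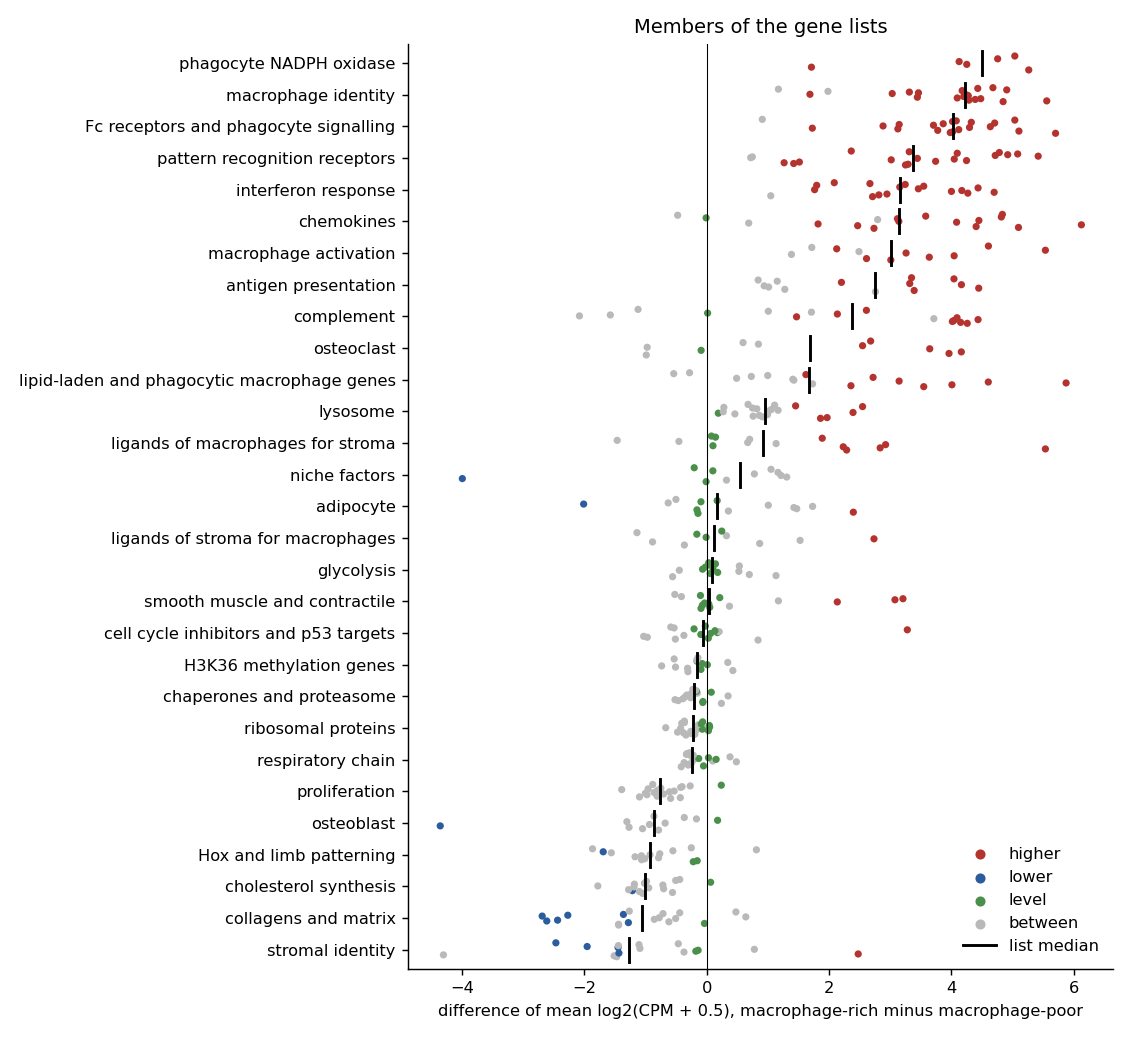
Difference of mean log2(CPM + 0.5), macrophage-rich minus macrophage-poor (horizontal axis), for each member past the filter of 29 gene lists (rows), coloured by class, with the list median as a black bar. Phagocyte lists have medians up to 4.51, housekeeping lists sit near 0, and stromal identity has the lowest median, at -1.27.

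The signals by which the cells act on each other were also read. Of 10 stromal ligands for macrophages past the filter, 1 was higher (Ccl2), 3 were level, and the median was 0.12 (-0.02 on TPM). Csf1, the growth factor that macrophages need, had 1705, 1633, 2336 and 2642 CPM in rich replicates 3, 8, 5 and 9, against 2588 and 2658 CPM in poor replicates 1 and 2. The poor libraries were thus not low in Csf1, and replicate 9 lay between them. Gas6, a bridge between dying cells and macrophages, was level at -0.16. Of 14 macrophage ligands for stroma, 6 were higher (Osm, Tnf, Il1a, Tgfb1, Pdgfb and Grn). Tgfb1, which drives matrix production, had 343, 342, 277 and 273 CPM in rich libraries, against 68.9 and 61.0 CPM in poor ones.

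Of 10 niche factors that hold haematopoietic stem cells, more parted along the pairs than along the split by the 2-fold rule. Between the pairs, 5 were higher in replicates 5 and 9 (3.84% of all genes past the filter). Replicates 3 and 8 had 1 higher (3.85%). Against the poor libraries none was higher (7.62%) and 1 was lower (2.56%). Il7 and Vcam1 had rich above poor without overlap, as did 25.5% of all genes past the filter. Cxcl12, the chemokine that retains stem cells, had 317, 320, 2128 and 1179 CPM in rich replicates 3, 8, 5 and 9, against 746 and 686 CPM in poor replicates 1 and 2. It was level by its mean, with replicates 3 and 8 below the poor pair and replicates 5 and 9 above it. Angpt1 had 10.3 and 8.63 CPM in rich replicates 3 and 8 and 64.8 and 37.9 CPM in rich replicates 5 and 9, against 8.81 and 8.20 CPM in poor ones. Lepr, a marker of marrow stromal cells, was the only lower member of the 10, at 0.745 to 1.78 CPM in rich libraries and 26.1 and 26 CPM in poor ones.

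The 2 rich pairs were not alike in all genes that were higher in rich libraries. Between replicates 3 and 8 and replicates 5 and 9, by the same 2-fold rule, 499 genes were higher in the first pair (3.85%) and 498 in the second (3.84%). Among the 987 genes higher in rich libraries, 103 (10.4%) were higher in replicates 3 and 8, 42 (4.26%) in replicates 5 and 9, and 842 in neither. The split on Lyz2 did not use this contrast, but with 2 partner libraries a side it has no spread between cultures, so no test is given.

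Replicates 3 and 8 had more RNA of Cd4, Cd74, Treml4, Fcna, Lilra5 and Clec10a, the 6 of the 987 higher genes with the largest difference in that direction. Cd4, a T cell coreceptor that some macrophages carry, had 80.7 and 104 CPM in replicates 3 and 8, against 0.814 and 1.24 CPM in replicates 5 and 9, and no count in either poor library. Treml4, a receptor of splenic macrophages in mice, had 41.4 and 49.7 CPM in replicates 3 and 8, against 1.92 and 1.53 CPM in replicates 5 and 9. Fcna, a ficolin of the lectin complement pathway, had 90.4 and 137 CPM in replicates 3 and 8, against 5.41 and 6.26 CPM in replicates 5 and 9. For all 3 genes, both libraries of the first pair lay above both of the second. Vsig4, a complement receptor of resident macrophages, showed the same order, with 58.5 and 67.1 CPM in replicates 3 and 8, against 4.60 and 5.88 CPM in replicates 5 and 9.

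Replicates 5 and 9 had more RNA of Marco, Acp5, Chil3, Cxcl1, Angpt2 and Siglece. Marco, a scavenger receptor for bacteria, had 13.1 and 16.2 CPM in replicates 3 and 8, against 623 and 363 CPM in replicates 5 and 9, and 1.01 and 1.29 CPM in poor libraries. Acp5, the tartrate-resistant phosphatase of osteoclasts and some macrophages, had 6.08 and 6.32 CPM in replicates 3 and 8, against 97.6 and 60.2 CPM in replicates 5 and 9. Siglece, an inhibitory receptor of myeloid cells, had 11.7 and 17.3 CPM in replicates 3 and 8, against 173 and 93.7 CPM in replicates 5 and 9. These genes were chosen for their difference between the pairs. Of the 4 markers, C1qa and Lyz2 overlapped between the pairs, and Cd68 was higher in replicates 3 and 8 by 1.06 on the log2(CPM + 0.5) scale. Csf1r went the other way, with 631 and 537 CPM in replicates 3 and 8, against 657 and 803 CPM in replicates 5 and 9.

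**Figure D4:**
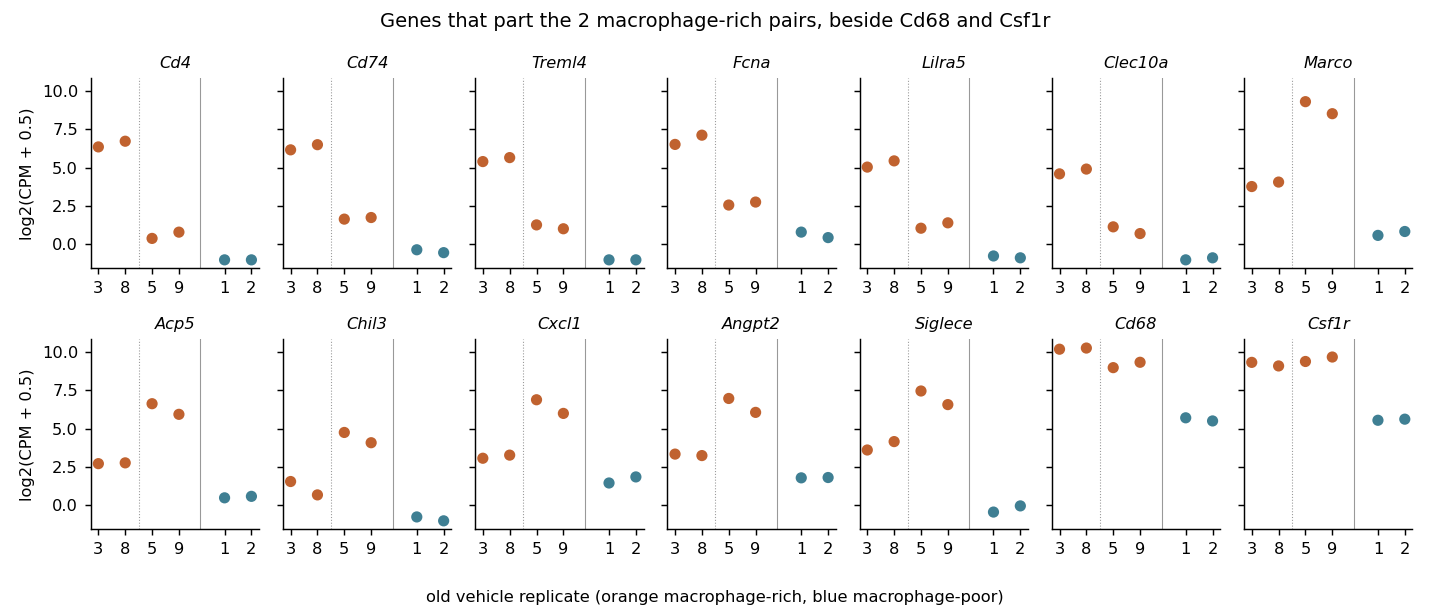
log2(CPM + 0.5) in each old vehicle library, a point per library, for the 6 genes of largest difference in each direction between the rich pairs among the 987 higher genes, and for Cd68 and Csf1r. Macrophage-rich replicates are orange (3 and 8 left of the dotted line, 5 and 9 right of it) and macrophage-poor replicates 1 and 2 are blue. Cd4 is at 80.7 and 104 CPM in replicates 3 and 8 and at most 1.24 CPM elsewhere, and Marco is highest in replicates 5 and 9, at 623 and 363 CPM.

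Cell cycle genes differed between the rich pairs more than between rich and poor libraries. Of 20 proliferation genes, none was higher or lower in rich against poor and 1 was level (Pcna), with a median of -0.77. Between the pairs, 17 of 20 were higher in replicates 3 and 8, with a median of 1.51. Mki67, a marker of cycling cells, had 147 and 163 CPM in replicates 3 and 8 and 37.2 and 28.3 CPM in replicates 5 and 9, against 105 and 110 CPM in poor replicates 1 and 2. The poor pair lay between the rich pairs. Among 16 cell cycle inhibitors and p53 targets, 7 were level and 1 was higher (Gdf15), with a median of -0.06 (0.12 when scaled to the counts outside the higher genes). Cdkn2a, an inhibitor that accumulates in senescent cells, had 28.7, 33.5, 55.7 and 90.5 CPM in rich replicates 3, 8, 5 and 9, against 94.8 and 90.3 CPM in poor ones. Cdkn1a, the p53 target p21, had 599, 589, 754 and 746 CPM in rich libraries, against 365 and 380 CPM in poor ones.

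Genes that write, erase or read methylation of histone H3 lysine 36, which bear on the aim in the series title, were not called by the 2-fold rule. None of 13 was higher or lower, against 7.62% and 2.56% of all genes past the filter. A list this short is near those shares with no member called. The level ones were 4 (Nsd3, Setd3 and the demethylases Kdm2a and Kdm4a), near the 29.5% of all genes past the filter. The median was -0.16 (0.02 when scaled to the counts outside the higher genes). For 7 of the 13, rich lay below poor without overlap, against 33.0% of all genes past the filter. Nsd2, the enzyme named in the title, had 126 and 118 CPM in rich replicates 3 and 8 and 32.5 and 32.8 CPM in rich replicates 5 and 9, against 43.4 and 50.6 CPM in poor replicates 1 and 2. It was the sole list member higher in replicates 3 and 8 by the 2-fold rule, in the same order of pairs as Mki67.

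Partner libraries were not equally close. Replicates 1 and 2 differed by at least 2-fold in 0.0926% of genes, replicates 3 and 8 in 0.293%, and replicates 5 and 9 in 3.16%. Of these, 83 genes were at least 4-fold higher in replicate 9 than in replicate 5, and 1 was at least 4-fold lower. In 70 of the 83, both poor libraries also lay above replicate 5, and 13 of the 83 were in the lower class. Their median log2(CPM + 0.5) was 4.03 in replicate 9, 0.88 in replicate 5, and 2.39 and 2.38 in replicates 3 and 8, against 3.54 and 3.59 in poor replicates 1 and 2. Thy1, the stromal surface marker CD90, had 12.9, 12.1, 15.5 and 335 CPM in rich replicates 3, 8, 5 and 9, against 604 and 615 CPM in poor ones. Folh1, a membrane peptidase, had 4.64, 5.40, 2.71 and 171 CPM in rich libraries, against 144 and 150 CPM in poor ones. Igfbp6, a binding protein of insulin-like growth factors, had 39.1, 40.4, 17.8 and 283 CPM in rich libraries, against 221 and 216 CPM in poor ones. For such genes replicate 9 lay with the poor libraries and its partner did not, while for Lyz2 both were rich.

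In the 6 libraries outside the comparison, the higher and lower genes lay away from their medians in the rich libraries, and the level genes did not. The median log2(CPM + 0.5) of the higher genes was 5.13 to 5.40 in rich libraries, against 2.14 and 2.18 in poor ones. It was 2.41 in old melatonin 1 and 2.57 in young vehicle 2, and 0.90 to 1.13 in the 4 others. Single higher genes, such as Eng, Ifit3 and Actg2, reached levels of rich libraries in some of these 6, as given above. The lower genes had medians of 2.38 to 2.74 in rich libraries, against 4.79 and 4.85 in poor ones, and 4.17 to 4.58 in the other 6. The level genes lay at 4.89 to 5.14 in all 12. The distance between rich and poor libraries on the medians of the higher and lower genes was fixed by how these genes were chosen. These 6 libraries took no part in the choice of classes, but old melatonin and young vehicle libraries are partners of each other and not 6 separate measurements.

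**Figure D5:**
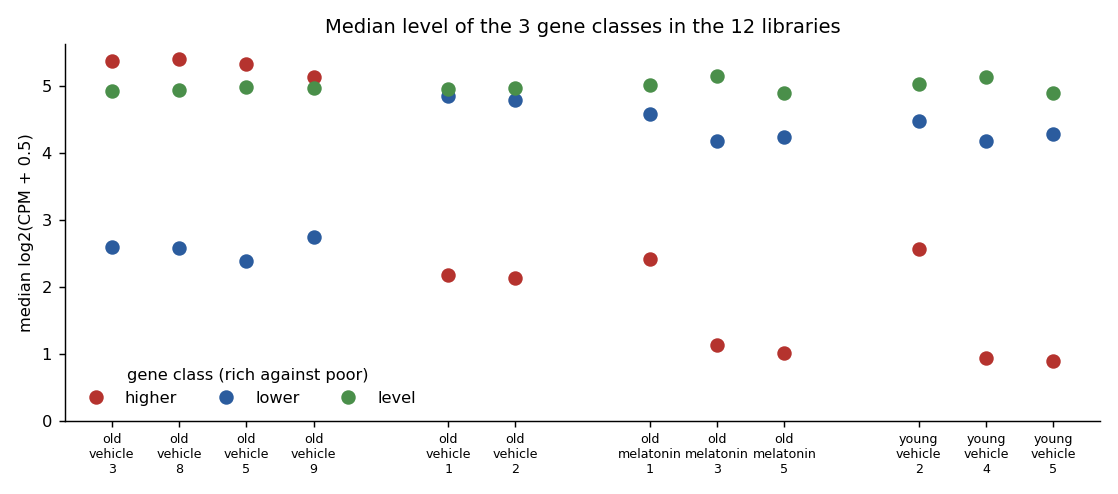
Median log2(CPM + 0.5) of the 987 higher, 332 lower and 3822 level genes in each of the 12 libraries, a point per class and library. The 4 macrophage-rich libraries are at the left, followed by macrophage-poor old vehicle, old melatonin and young vehicle. Higher genes are at 5.13 to 5.40 in rich libraries and at most 2.57 in the 8 others.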

How the data were processed

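Per the labels' protocols, RNA of mouse bone marrow MSC cultures was read on a BGISEQ-500 instrument. The authors deposited an age and a melatonin table of 18908 genes each. Per the file headers, the main unit is an estimated count that can carry decimals (67.7% of the deposited counts were whole to within 0.005). Of the 2 length-scaled units, the authors' deposited FPKM was left unused and the authors' deposited TPM was an alternative scale. The submitters' processing notes name Bowtie2, BWA, RSEM and the build mm39, without roles or versions. Strand handling is not given in the sources used here.

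Both tables were joined on the symbol, and estimated counts were divided by each library's sum to give CPM, so no rounding or count test was applied. Groups were chosen by Lyz2 CPM above or below 2000. Differences are means of log2(CPM + 0.5), rich minus poor, over 4 and 2 libraries, for genes with a mean of at least 1 CPM. Such values understate the change of low genes, and 3 counts equal 0.141 to 0.146 CPM, a floor for counting error only. Of the 987 higher genes, 60 had at most 3 counts in each poor library, and no fold is given for these.

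The members and the 39 gene lists were chosen with earlier results of these data known. The text names Lyz2, Cd68, Csf1r and C1qa, up to 5 members of highest CPM and members of another class in each list, the 15 higher and 15 lower genes of largest difference, the 12 level genes of highest CPM, and 6 genes a direction between the rich pairs. Other genes, among them Thy1, Folh1, Igfbp6, Pdgfrb, Vsig4, Tlr3 and Sqle, were named after their values were seen. A few genes taken by this rule are not reported here. Alternatives were TMM (edgeR 4.0.16) and DESeq2 1.42.0 size factors, other pseudocounts, filters and gaps, each table alone, averaged partners, and leaving out each library. Python 3.11.15 and R 4.3.3 were used.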

Additional observations from a re-analysis of the deposited data

Results flagged for a closer look

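Among the 4 rich or the 6 old vehicle libraries, 24 values in 648 groups of libraries looked at stood apart from the rest by the gap to their nearest neighbour. Chance alone flags about 1 in 20 groups of independent values, a larger share than was flagged here, and these libraries come in pairs. All 24 belonged to replicate 5 or 9, the least similar pair of partners among old vehicle libraries. Replicates 1 and 2, and 3 and 8, differed by at least 2-fold in only 0.0926% and 0.293% of genes. Their values thus had little room to stand apart from their nearest neighbour. Replicate 5 was highest among rich libraries for B2m (4153 CPM, next 2305), H2-K1 (1533 CPM, next 834), Tap1 (137 CPM, next 91.3) and Oasl2 (391 CPM, next 193), and its mean over the interferon-response list was 7.13 on the log2(CPM + 0.5) scale. It was also highest for Lyn (290 CPM), Mylk (426 CPM), Grem1 (49.6 CPM), Plac8 (19.7 CPM) and Runx2 (45.5 CPM) among rich libraries. Among all 6 old vehicle libraries it was highest for Pparg (60.6 CPM), Vegfa (156 CPM, also among rich libraries) and Pecam1 (4.79 CPM), and lowest for Hspa8 (2252 CPM). Replicate 9 was highest for Angptl7 (53.7 CPM, next 3.11) among rich libraries. It was highest for Cdkn1c (23.6 CPM, next 2.68 among rich and 4.21 among all 6 libraries), Cx3cr1 (19.8 CPM) and Bmp6 (22.4 CPM, among all 6). Replicate 9 was lowest among rich libraries for Evi2b (82.7 CPM), Msx2 (11.3 CPM) and the mean over the contractile list (7.95 on the log2(CPM + 0.5) scale).

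The 2 tables gave opposite signs, with every library of a table on its own side, for 3 genes of small difference. The difference in log2(CPM + 0.5), rich minus poor, was 0.18 in the age table and -0.12 in the melatonin table for Cox4i1, -0.21 and 0.02 for Nsd3, and 0.14 and -0.04 for Rps3. These differences between tables were not tested.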

How the results depend on the processing

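The 987 higher, 332 lower and 3822 level genes depend first on the gap asked for. With no overlap alone the counts were 3298 higher and 4270 lower, and with a gap of 4 times 507 and 63. Without the filter on low values, 8070 genes were level. The level count was 2541 in the age table alone, 2430 in the melatonin table alone and 2437 with matched libraries averaged, and the lower count was 568 in the melatonin table alone and 502 with matched libraries averaged, where fewer values per group have to meet the rule. Under TMM, DESeq2 size factors, the sum without the higher genes, TPM, pseudocounts of 0.1 and 2, and a filter of 5 CPM, all 3 counts stayed within 1.5 times. The level class changed its members more than its size, with 2371 of the 3822 genes shared under the sum without the higher genes, 2572 on TPM, 3269 under TMM and 3339 under DESeq2 size factors. The lower class also depended on the scaling. It held 235 genes under the sum without the higher genes, of which 232 were among the 332. With a pseudocount of 2 it held 251, and on TPM 386, of which 306 were among the 332. Leaving out each old vehicle library in turn gave 997 to 1053 higher, 348 to 471 lower and 3311 to 3599 level genes. Apart from the filter on mean CPM, leaving out a library can only loosen the rule for higher and lower genes. For 324 differences of named genes and list medians under 15 alternatives, 286 of 4860 values moved by more than 1 SD of their libraries. No list median of at least 1 in size changed sign, and no gene of the higher or lower class did. For genes of these 2 classes, the rule fixed the sign in advance in each table alone, with averaged partners and with a library left out. Their lack of sign changes there is therefore no check. Bmp6 moved to 0.04 in the age table alone, against -0.45 over both. No paired analysis was possible because the rich libraries carry replicate numbers 3, 5, 8 and 9 and the poor ones 1 and 2, with none shared. The differences rest on 2 rich pairs and 1 poor pair of libraries. Of the 987 higher genes, 60 had at most 3 counts in each poor library, so the size of their difference is limited by depth.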
